A study of Mus musculus with 4 samples.

Results

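Transcripts of the JAK, STAT and SOCS genes were measured in mammary basal cells of mice fed soy protein isolate (SPI) and of mice fed casein (CAS). The 10 genes are the kinases Jak1 and Jak2, the transcription factors Stat2, Stat3, Stat5a and Stat5b, and the feedback inhibitors Socs1, Socs2, Socs3 and Cish. They were chosen by symbol, and every probe set that the platform annotation assigns to exactly 1 of them was used. This gave 26 probe sets out of 45037 that are not controls, and 10 genes out of 18193. The SPI group holds 2 Affymetrix arrays of MMTV-Wnt1 transgenic mice on the soy protein isolate diet, and the CAS group holds 2 arrays of the same transgenic line on the control casein diet. All animals had the mixed B66SJL/HEV/J background and carried the transgene, in which the MMTV promoter drives the Wnt1 ligand in the mammary gland, and no mice without it are among the samples. RNA was taken from the freshly sorted basal fraction, which per the labels mixes stem cells, myoepithelial cells and myoepithelial progenitors. The labels give no age, and nothing in them states that 2 arrays on 1 diet stem from different mice, so the p-values reflect the scatter among these 4 arrays only, and that scatter may be technical.

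Cytokines, prolactin, growth hormone and interferons act through receptors that have no kinase of their own. Janus kinases bound to the receptor phosphorylate it and the STAT factors, which pair up, enter the nucleus and switch on target genes. SOCS proteins and CIS, the product of Cish, are among these targets and shut the receptor complex down again. In the mammary gland STAT5 drives milk protein synthesis downstream of prolactin, STAT3 drives cell death at weaning, and STAT2 carries the type I interferon signal. Much of this signalling runs through phosphorylation, which an expression array does not see.

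The deposited values are log2 expression with the median of the 4 arrays set to 0 for each probe set, so they show differences between arrays and no levels. By this centring the middle values of a probe set are always equal in size and opposite in sign. The median over all probe sets lay between -0.0096 and 0.0092 on the 4 arrays. A coarse level class can be read from the step size of the deposited digits, and 24 of the 26 member probe sets fell at a log2 level of 4 or above and 13 of them in the class 8 to 16. Of 44 olfactory receptor probe sets, 13 also reached 4 and 3 reached 8. The lower class thus does not establish expression, and the class 8 to 16 is no proof of it for a single probe set. The basal keratin genes Krt5 and Krt14 and the basal factor Trp63 each had a probe set in the class 8 to 16, as did the luminal keratins Krt8 and Krt18 and the leukocyte gene Ptprc.

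None of the 10 genes changed between the diets by the test used. Of the 26 member probe sets, 0 rose and 0 fell at an adjusted p under 0.05 (limma, SPI minus CAS, Benjamini-Hochberg over all 45037 probe sets), where 1.50% of all probe sets passed, 0.249% higher and 1.25% lower in SPI. The adjusted p of the members ran between 0.163 and 0.909. At an unadjusted p under 0.05 there were 3 member probe sets, beside 17.8% of all probe sets. Of these, 1 read Cish and was higher in SPI, beside 9.43% of all probe sets, and 2 read Stat3 and Stat5b and were lower, beside 8.35%. The log2 differences of the members lay between -0.34 and 0.35, with a median of 0.03, beside 0.02 over all probe sets. Their median size was 0.082, beside 0.113 over all probe sets.

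The precision of these differences sets what a failed test can mean. All 26 intervals of the difference (95%, limma) stayed within a 2-fold difference in either direction, and 24 stayed within 1.5-fold. The widest bounds were a 1.72-fold higher value in SPI, for a Socs2 probe set, and a 1.49-fold lower value, for a Stat3 probe set. Across the whole table the smallest difference that passed was 0.53 on the log2 scale. Differences no larger than the largest of the members, 0.35, were found in 41214 probe sets, and 0 of those passed. A member difference of the sizes seen here was therefore too small to be called on 2 arrays per diet, and the failed tests do not show equal expression. An exact permutation of 2 against 2 arrays cannot go below a two-sided p of 0.333, so the fit across all probe sets carries every test here.

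**Figure D1:**
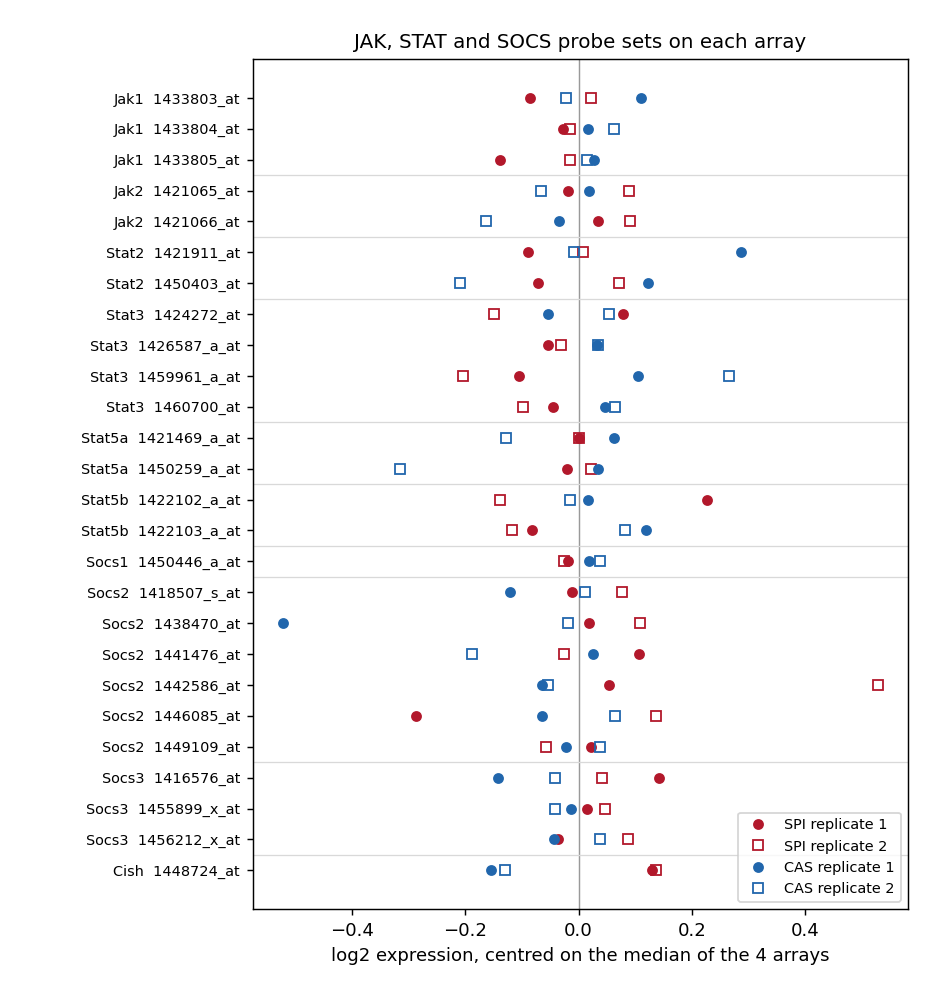
Log2 expression of the 26 member probe sets on each array, centred on the median of the 4 arrays (x axis), with 1 row per probe set; red marks are the SPI arrays and blue marks the CAS arrays, filled for replicate 1 and open for replicate 2. Most values lie within 0.3 of 0, the SPI marks are to the right of the CAS marks for Cish and to the left for 3 Stat3 probe sets (2 of which turn higher in SPI under hybridization-control centring), and Socs2 holds the values farthest out, -0.523 and 0.529.

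Both SPI arrays lay above both CAS arrays in 6 of the 26 member probe sets, beside 27.9% of all probe sets, and below them in 7, beside 20.5%. Together these were 13 of 26, beside 48.4% of all probe sets, and in the other 13 the diets overlapped. Of the 8 genes with more than 1 probe set, 5 had all their probe sets on the same side of 0, Jak2, Stat5a and Socs3 higher in SPI, and Jak1 and Stat3 lower, though all 3 of Jak1 and 3 of the 4 of Stat3 turned higher when arrays were centred on the bacterial and phage hybridization controls. That scaling moved the median difference of all probe sets to 0.18, and the median of the members became 0.19, close to it. Of the 26 members 23 were then on the higher side, and the share of all probe sets there was not computed. Under that scaling 0 of the 26 passed, beside 2261 of all 45037 probe sets, 1557 higher and 704 lower in SPI.

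Jak1 is the kinase shared by the interferon, gp130 and common gamma receptors. Its 3 probe sets were all in the class 8 to 16 and differed by -0.08, -0.06 and -0.10 on the log2 scale, which became 0.08, 0.09 and 0.06 under hybridization-control centring. Probe set 1433805_at had -0.139 and -0.015 on the SPI arrays, against 0.027 and 0.015 on the CAS arrays. The diets did not overlap there, but the gap of 0.12 between the SPI arrays was larger than the difference between diets. Its interval of the log2 difference ran between -0.31 and 0.11 (limma adjusted p = 0.593), and the difference was -0.04 without SPI replicate 1.

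Jak2 carries the prolactin, growth hormone and leptin receptor signal. Probe set 1421066_at had 0.034 and 0.091 on the SPI arrays, against -0.034 and -0.163 on the CAS arrays, a log2 difference of 0.16 (-0.05 to 0.38, limma adjusted p = 0.394), which became 0.32 under hybridization-control centring (adjusted p = 0.129). The diets did not overlap, and the 2 CAS arrays were 0.13 apart. The other probe set, 1421065_at, differed by 0.06 and its diets overlapped.

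Stat2 joins IRF9 and another STAT in the complex that type I interferon activates, and it is itself induced by interferon. Probe set 1421911_at had -0.090 and 0.008 on the SPI arrays, against 0.286 and -0.008 on the CAS arrays. CAS replicate 1 alone stood high there, and the diets overlapped. The log2 difference was -0.18 (-0.49 to 0.13, limma adjusted p = 0.498). Without CAS replicate 1 it was -0.03 and without CAS replicate 2 it was -0.33, so it depended on which CAS array was kept. Under hybridization-control centring it was -0.02. The other Stat2 probe set, 1450403_at, was at 0.04 with its values spread between -0.209 and 0.122, the extremes being the CAS arrays.

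Stat3 transmits the signal of IL-6, LIF and oncostatin M. Its probe set 1459961_a_at had -0.105 and -0.205 on the SPI arrays, against 0.105 and 0.266 on the CAS arrays. Both SPI arrays were lower, by a log2 difference of -0.34 (-0.58 to -0.10), or 1.27-fold, the largest of the differences toward lower values in SPI among the members. It did not pass (limma adjusted p = 0.173). With 1 array left out it ranged between -0.42 and -0.26, and it was -0.19 under hybridization-control centring.

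The other Stat3 probe sets were at -0.13 (1460700_at), -0.08 (1426587_a_at) and -0.04 (1424272_at), and each of these turned positive, at 0.03, 0.08 and 0.12, under hybridization-control centring. The diets did not overlap in 1460700_at, at -0.046 and -0.098 on the SPI arrays against 0.046 and 0.064 on the CAS arrays. They overlapped in 1424272_at. As the mean of its 4 probe sets, Stat3 was at -0.14 (-0.32 to 0.03, limma adjusted p = 0.322 over genes).

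Stat5a and Stat5b are closely related factors that lie next to each other, beside Stat3, on mouse chromosome 11. For Stat5b, probe set 1422103_a_at had -0.082 and -0.118 on the SPI arrays, against 0.119 and 0.082 on the CAS arrays, a log2 difference of -0.20 (-0.39 to -0.01, limma adjusted p = 0.259). The arrays of each diet were close together there and the diets did not overlap. The difference shrank to -0.05 under hybridization-control centring. The other Stat5b probe set, 1422102_a_at, did not show this difference, at 0.04 (-0.30 to 0.39). There the 2 SPI arrays were the extremes, at 0.227 and -0.139, against 0.016 and -0.016 on the CAS arrays.

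For Stat5a, probe set 1450259_a_at had -0.021 and 0.021 on the SPI arrays, against 0.034 and -0.316 on the CAS arrays. CAS replicate 2 was the only low array, and the diets overlapped. The log2 difference of 0.14 (-0.19 to 0.48, limma adjusted p = 0.637) became -0.03 without that array and 0.30 under hybridization-control centring. The other probe set, 1421469_a_at, was at 0.03 and was in the class 2 to 4.

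Cish encodes CIS, which binds activated prolactin and growth hormone receptor complexes and is a standard STAT5 target. Its 1 probe set, 1448724_at, had 0.130 and 0.137 on the SPI arrays, against -0.155 and -0.130 on the CAS arrays. Arrays of the same diet differed by 0.01 in SPI and 0.03 in CAS, and all SPI values were above all CAS values. The log2 difference was 0.28 (0.09 to 0.46), or 1.21-fold higher in SPI (1.07 to 1.38). Over all probe sets it did not pass (limma adjusted p = 0.163). With 1 array left out the difference ranged between 0.26 and 0.29, and under hybridization-control centring it was 0.43. Over the settings with all 4 arrays its limma adjusted p ran between 0.0557, under that centring, and 0.321, with the replicate number as a block.

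Cish and Socs3 are also the members whose promoters, as RefSeq windows of GRCm38.p6 reaching 250 bases before and 50 after the annotated start, hold the palindromic STAT motif TTCNNNGAA. The motif reads the same on both strands and is present in 8.30% of 32851 such windows. Such a window was given for 9 of the 10 genes. Socs2 had none, so its promoter was not searched for this motif or for the one given further on. The stretches around the matches are shown because STAT binding here is the textbook feedback loop of these genes, with the motif in capitals. In Cish 2 copies stand in tandem at the annotated start (chr9:107296619-107296678, plus strand), and in Socs3 1 copy begins 154 bases before the start (chr11:117969472-117969560, minus strand). A match is a description of these letters and no evidence of binding in these cells.
Cish: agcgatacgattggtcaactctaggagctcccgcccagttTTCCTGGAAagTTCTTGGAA
Socs3: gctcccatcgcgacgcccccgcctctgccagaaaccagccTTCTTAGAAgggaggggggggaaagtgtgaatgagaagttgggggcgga

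Socs3 binds gp130 and inhibits the signal of the IL-6 family. Its probe set 1416576_at had 0.142 and 0.041 on the SPI arrays, against -0.142 and -0.041 on the CAS arrays, a log2 difference of 0.18 (-0.03 to 0.40, limma adjusted p = 0.345), which became 0.34 under hybridization-control centring (adjusted p = 0.0868). The diets did not overlap. The remaining Socs3 probe sets, 1455899_x_at and 1456212_x_at, were at 0.06 and 0.03, and by their suffix contain probes that may also match other sequences. All 3 lay in the class 8 to 16.

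Socs1 inhibits the kinases directly and is the main brake on interferon signalling. Its 1 probe set, 1450446_a_at, had -0.019 and -0.025 on the SPI arrays, against 0.019 and 0.038 on the CAS arrays. The log2 difference was -0.05 (-0.23 to 0.13, limma adjusted p = 0.773), and became 0.11 under hybridization-control centring. Socs1 and Stat2 are the members whose promoter windows hold a pair of GAAA half-sites with 2 bases between them, the repeat that interferon regulatory factors bind, searched on both strands with overlaps counted and present in 3.44% of the windows. In Socs1 there are 2 overlapping matches (chr16:10785564-10785659, minus strand), and in Stat2 there is 1, in its reverse orientation (chr10:128270248-128270325, plus strand). They are shown, with the matches in capitals, because several interferon targets fell in SPI, as given further on.
Socs1: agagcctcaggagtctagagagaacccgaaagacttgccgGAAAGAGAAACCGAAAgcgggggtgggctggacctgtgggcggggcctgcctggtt
Stat2: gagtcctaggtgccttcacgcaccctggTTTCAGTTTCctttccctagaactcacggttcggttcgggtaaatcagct

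Socs2, which restrains growth hormone signalling, was read by 6 probe sets, with log2 differences between -0.08 and 0.35. Probe set 1442586_at had 0.054 and 0.529 on the SPI arrays, against -0.064 and -0.054 on the CAS arrays, and its log2 difference of 0.35 (-0.07 to 0.77, limma adjusted p = 0.351) became 0.11 without SPI replicate 2. Probe set 1438470_at had 0.018 and 0.108 on the SPI arrays, against -0.523 and -0.018 on the CAS arrays, and its difference of 0.33 (-0.12 to 0.78, adjusted p = 0.397) became 0.08 without CAS replicate 1. With each array left out in turn, 1442586_at ranged between 0.11 and 0.59 and 1438470_at between 0.08 and 0.59, so both depended on single arrays. Hybridization-control centring raised the 2 differences to 0.51 and 0.49. Like 1442586_at, 1449109_at was in the class 8 to 16, at -0.03 (-0.23 to 0.17), and its diets overlapped. The remaining 3, 1418507_s_at, 1441476_at and 1446085_at, were at 0.09, 0.12 and -0.08 with overlapping diets, and 1418507_s_at may by its suffix match more than 1 gene.

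**Figure D2:**
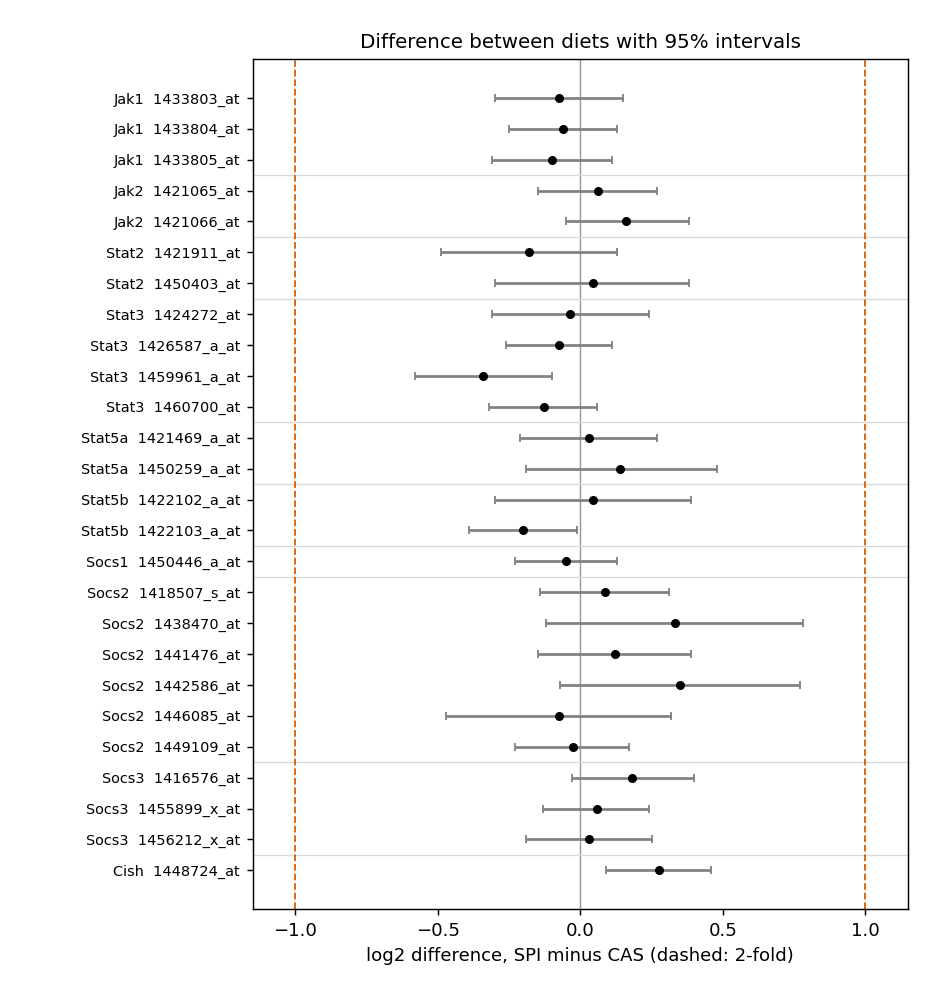
Log2 difference between the diets, SPI minus CAS, for each of the 26 member probe sets (x axis, log2 units), with points for the limma estimate, bars for the 95% interval and dashed lines at a 2-fold difference. Every bar stays inside the dashed lines, and those of Cish (0.09 to 0.46), Stat3 1459961_a_at (-0.58 to -0.10) and Stat5b 1422103_a_at (-0.39 to -0.01) do not reach 0, although none of the 3 passed after adjustment; the Stat5b value shrinks to -0.05 under hybridization-control centring.

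Of 76 probe sets of 28 other kinases, STAT, SOCS and PIAS genes, phosphatases and SH2 adaptors, 0 passed in limma, beside 1.50% of all probe sets, and 10 had an unadjusted p under 0.05, beside 17.8%. Their log2 differences ran between -0.96 and 0.60, with a median of -0.01. That range is wider than that of the members but covers more probe sets. Their median size was 0.095, beside 0.082 for the members. Jak3, the kinase of lymphoid receptors, was at -0.07, and Tyk2, the partner of Jak1 at interferon receptors, at 0.16 and -0.11 in probe sets of opposite sign. Stat4 was at -0.16, and Stat6, the IL-4 factor, at -0.06 and -0.08. The other SOCS genes, Socs4 to Socs7, lay between -0.23 and 0.21 over 13 probe sets. The differences farthest from 0, singled out after their values were seen, were those of Pdlim2 (-0.96, limma adjusted p = 0.0691), of a probe set of Pias1 at 0.60 (adjusted p = 0.154) and of a probe set of Lrrfip1 at -0.51 (adjusted p = 0.0806), and none of these passed.

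Among receptors, 1 of 56 probe sets of 25 genes passed and 55 did not, a share near the 1.50% of all probe sets. It read the leptin receptor Lepr, with -0.50 and -0.50 on the SPI arrays against 0.50 and 0.715 on the CAS arrays, and fell 2.15-fold in SPI (limma adjusted p = 0.0186). The other Lepr probe sets did not pass, at -0.90 (adjusted p = 0.0778), -0.08 (0.723) and 0.06 (0.816), the last of them in the class 8 to 16. The signalling chain gp130, encoded by Il6st, was at -0.13, -0.10, -0.15 and -0.11 in 4 probe sets, none of which passed. Ghr, the growth hormone receptor, lay between -0.11 and -0.01 in 3 probe sets. The interferon receptor chains Ifnar1 (0.00 and -0.12) and Ifngr1 (-0.12) did not pass either, nor did their partner chains Ifnar2 (0.23, -0.08 and -0.08) and Ifngr2 (-0.29 and -0.15), which were added after their values were seen. Of 22 ligand probe sets 1 fell, beside 1.25% of all probe sets. It read Il6, with -0.492 and -0.707 on the SPI arrays against 0.492 and 0.710 on the CAS arrays (2.30-fold, limma adjusted p = 0.0240).

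Calls appeared among the targets. Of 13 probe sets of 9 interferon-induced targets, 5 fell and 0 rose, beside 1.25% and 0.249% of all probe sets, with a median log2 difference of -0.59. The antiviral genes Ifit1 and Oasl2 fell 4.58-fold and 3.44-fold, the GTPase Gbp2 fell 3.15-fold and 2.85-fold in 2 probe sets, and Usp18, which removes ISG15 and dampens the interferon receptor, fell 2.80-fold (limma adjusted p between 0.00553 and 0.0119). Oasl2 had -0.939 and -0.862 on the SPI arrays, against 0.897 and 0.862 on the CAS arrays. The intervals of Stat2, Jak1 and Socs1 all lay within 1.5-fold in either direction under the deposited scaling, which does not show equal expression. Any part of these genes in the falls was not tested. The list of interferon-induced targets was written with earlier results of these data known, so its direction is no independent evidence.

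Of 27 probe sets of 11 STAT5 targets, 8 fell and 0 rose, beside 1.25% and 0.249% of all probe sets, with a median of -0.19. The 8 read Wap, a whey protein (7.71-fold, limma adjusted p = 0.00805), the casein Csn1s1 (2.23-fold), the growth factor Igf1 (2.93-fold, 2.56-fold and 2.21-fold in 3 of 4 probe sets, the other at -0.43 not passing) and the cyclin Ccnd1 (1.88-fold, 1.87-fold and 1.74-fold). The casein Csn2, added after its values were seen, did not pass, at -0.49 and -0.72 (limma adjusted p = 0.0796 and 0.125). Bcl6, added likewise, was higher in SPI, at 0.44 and 0.35, and did not pass (limma adjusted p = 0.0727 and 0.25). Cish and Socs2, which are also STAT5 targets, are members and were counted above, Cish at 0.28 and Socs2 between -0.08 and 0.35. Of 29 probe sets of 13 STAT3 targets, 4 fell and 0 rose, beside 1.25% and 0.249% of all probe sets, with a median of -0.03. Besides the 3 of Ccnd1 the probe set that fell was that of Bcl3, an atypical inhibitor of NF-kappaB (1.53-fold, limma adjusted p = 0.0451). Socs3, a STAT3 target among the members, lay between 0.03 and 0.18. The STAT5 and STAT3 lists were also written with earlier results of these data known, so their direction is no independent evidence.

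**Figure D3:**
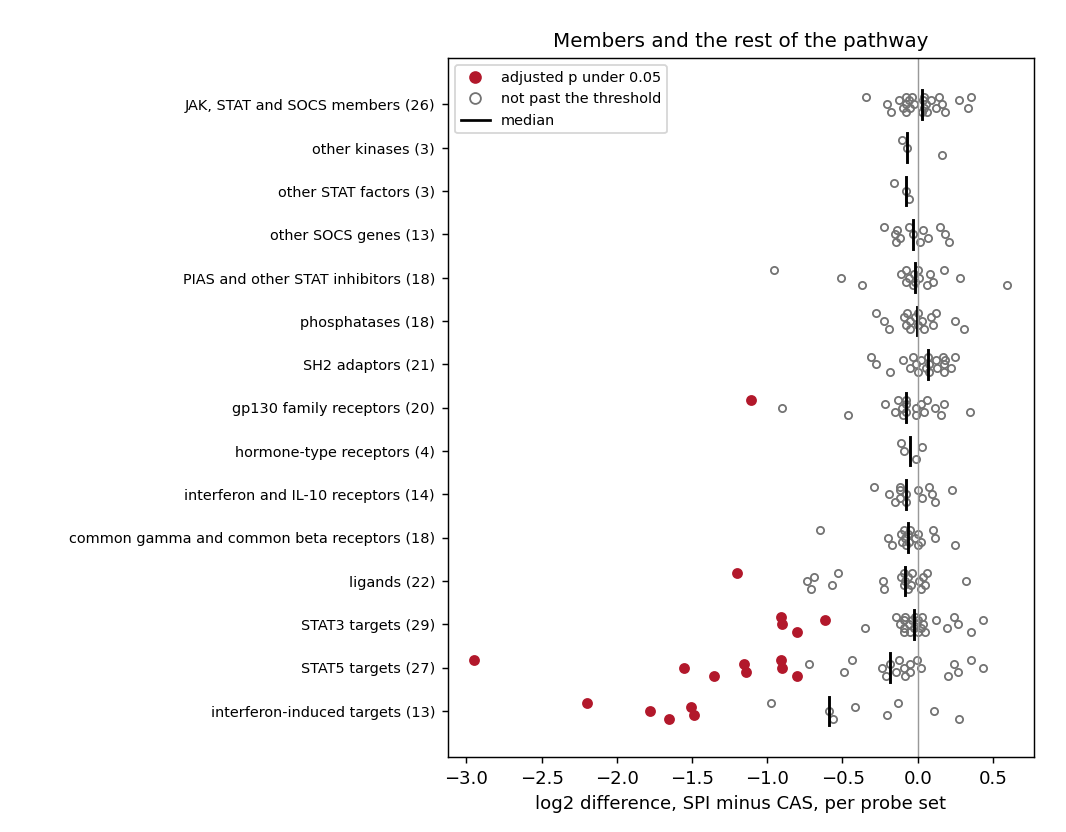
Log2 difference, SPI minus CAS, of single probe sets (x axis, log2 units) for the members and the other pathway lists, with the number of probe sets in brackets, filled red points for an adjusted p under 0.05 and a black bar for the median. Red points are absent from the members and the other intracellular lists and lie on the lower side in the gp130 family receptors (1), ligands (1), STAT3 targets (4), STAT5 targets (8) and interferon-induced targets (5). Of all probe sets 1.25% passed as lower and 0.249% as higher in SPI.

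Over all 209 other pathway probe sets of 99 genes 16 fell and 0 rose (a probe set on 2 lists counted once), beside 1.25% and 0.249% of all probe sets. Taking out any of the 4 arrays in turn (SPI replicates 1 and 2, CAS replicates 1 and 2) leaves 1 array for a diet. None of these calls held in those fits, nor did any call over all probe sets. With arrays centred on the hybridization controls 21 fell and 4 rose. Markers of other cell types moved on the same arrays, and their part in these falls was not tested. Of 21 fibroblast marker probe sets 13 fell, beside 1.25% of all probe sets. The fibroblast median was -0.63 and -0.67 on the SPI arrays, against 0.63 and 0.63 on the CAS arrays. Of 14 pericyte probe sets 10 fell, of 12 endothelial probe sets 2 and of 32 luminal probe sets 9. Of 14 adipocyte probe sets 2 fell and of 19 B and plasma cell probe sets 4. In these lists 0 probe sets rose, and the shares of all probe sets beside these counts are 1.25% lower and 0.249% higher. The luminal median was -0.19 and -0.26 on the SPI arrays, against 0.22 and 0.20 on the CAS arrays. Of 18 macrophage and myeloid and 13 T and NK cell probe sets 0 passed, beside 1.50% of all probe sets, with medians of 0.22 and 0.05. Of 31 basal probe sets 1 rose, beside 0.249% of all probe sets. Since these are bulk samples, fewer cells of a type and less RNA per cell cannot be told apart, and the centred values hold no summed marker level.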

How the data were processed

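The deposited values are log2 expression values of Affymetrix arrays, made from 0.1 ug of total RNA per the labels' protocols. Per the submitters' processing notes, GCOS and RMA were used (no versions given), and the logarithm's base was taken from RMA. Each probe set's 4 values have a median of 0 (within 5e-07), so the authors' log2 values had also been centred, a step no label records. Of 45037 non-control probe sets 34945 had 1 gene in the platform annotation, and gene IDs matched 34741 of them to current symbols (GRCm38.p6 table).

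Probe sets were fitted with limma 3.58.1 in R 4.3.3 (lmFit, eBayes without trend, 4 arrays, two-sided, without a replicate term). P-values were adjusted by Benjamini-Hochberg over all non-control probe sets, at a threshold of 0.05. The fit was tested on simulated data. Level classes came from the step size of the digits, with a tolerance of 0.15 of a step. All members are named. Of other pathway genes, those past the threshold were named (at most 5 per list), with a few receptors, kinases and STAT factors fixed by name. Members and lists were chosen with earlier results of these data known. Alternatives were a replicate block, each array left out, other scalings, a level trend or filter, an ordinary t statistic, other thresholds and values per gene.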

Additional observations from a re-analysis of the deposited data

How the results depend on the processing

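No member passed under any alternative run. The replicate numbers are not stated to pair arrays, and the within-diet differences of the arrays correlated at -0.099 across probe sets. With the replicate number as a block the other pathway probe sets past the threshold numbered 2 and all probe sets 79, beside 16 and 676 without it. With 1 array left out, where the diet with a single array is assumed to vary like the other, members, pathway and all probe sets each gave 0 to 0. An ordinary t statistic gave 0 pathway calls and 1 over all probe sets. By that statistic 5 of the 26 members had an unadjusted p under 0.05, beside 6084 of all 45037 probe sets. Centring on hybridization controls gave 25 pathway and 2261 overall calls (1557 higher, 704 lower, where the deposited scaling gave 112 higher and 564 lower), a trend over level class 25 and 1275, and a filter at level 4 gave 1169 overall. Thresholds of 0.1 and 0.01 gave 27 and 5 pathway calls and 1579 and 114 overall.

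Directions of small member values turned under some settings, in none of which they passed. Under hybridization-control centring Jak1 was at 0.08, 0.09 and 0.06, Stat3 at 0.12, 0.08 and 0.03, Socs1 at 0.11, and Socs2 1446085_at and 1449109_at at 0.08 and 0.13. As 1 value per gene Stat2 was at -0.07 and Stat5b at -0.08, against the side of 1450403_at and 1422102_a_at, and Socs2 at 0.13, or 0.16 in its highest level class, against that of 1446085_at and 1449109_at. With 1 array left out, 1450403_at of Stat2 ranged between -0.12 and 0.21, 1424272_at of Stat3 between -0.15 and 0.08, Stat5a between -0.06 and 0.13 (1421469_a_at) and -0.03 and 0.32 (1450259_a_at), 1422102_a_at of Stat5b between -0.14 and 0.23, Socs2 between -0.29 and 0.14 (1446085_at) and -0.07 and 0.01 (1449109_at), and 1456212_x_at of Socs3 between -0.03 and 0.09. The cause was not tested.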
